A study of Canis lupus familiaris with 6 samples.

Results

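The transcripts of the mitochondrial genome were examined in the whole blood of Beagle dogs. All genes that the deposited annotation places on the mitochondrial chromosome (MT) were taken, whatever their type, which gave 37 of the 31512 genes in the table. They comprise 13 protein-coding genes, 2 rRNA genes and 22 tRNA genes. Blood was sampled on day 30 from 3 healthy adult dogs fed a snack without the casein phosphopeptide-selenium chelate (CPP-Se), the control group, and from 3 fed the same amount of a snack with CPP-Se, the CPP-Se group. All dogs received the same maintenance food. The labels list each library as a separate biological replicate, and each is taken here as a single dog. The paper fed more dogs than the 6 libraries cover, and how those sequenced were chosen is not given in the sources used here. CPP-Se is an organic form of selenium bound to peptides of milk casein, and the comparison asked how blood gene expression differed after it was fed.

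Mitochondria keep a small circular genome that is transcribed from both strands into long precursor RNAs. Most of the tRNAs lie between the mRNA and rRNA genes, and their excision releases the individual transcripts, whose stability then sets much of their level. The mRNAs encode core subunits of respiratory chain complexes I, III, IV and V, and the rRNAs and tRNAs serve the ribosomes that translate them inside the organelle. In blood, mature red cells have no mitochondria, whereas leukocytes, platelets and reticulocytes do. Symbols below are those of the file, which writes COX3, ND4L and ND5 without a prefix and gives the tRNA and rRNA genes an Ensembl identifier and no name.

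The libraries were made from oligo(dT)-selected RNA, and levels are given as FPKM (fragments per kilobase of gene, scaled between libraries). The scaling was not by the reads on genes, since the implied library size was 0.882 to 1.65 times those reads, with the highest ratio in CPP-Se dog 2, and lay within 1.62% of median-of-ratios factors in every dog. Whole read numbers could be recovered from the FPKM, and 6598173 to 8067034 reads per dog lay on genes. Whether reads shared with nuclear copies of mitochondrial DNA were counted is not given in the sources used here. Hemoglobin genes took 36.6% of the reads in CPP-Se dog 2 and 48.7% to 55.9% in the other dogs. In the CPP-Se group, summed FPKM of 6 monocyte markers were 397 to 459 against 829 to 976 in the control group, those of 6 neutrophil markers were 1060 to 1624 against 1970 to 2663, and those of 7 T cell markers were 141 to 198 against 66.4 to 125. B cell markers (410 to 456 against 270 to 391) and NK and cytotoxic cell markers (29.3 to 48.9 against 10.6 to 24.3) were also higher without overlap. The red cell (6460 to 11144 against 6014 to 13070) and platelet markers (459 to 1616 against 608 to 1326) overlapped. PF4, GP9, GP1BA and TREML1 for platelets, CD14 for monocytes and FCGR3A and S100A9 for neutrophils were not matched by symbol, and no matched marker of any list was at 0 in every dog. The part of these differences in the results below was not tested.

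Mitochondrial transcripts made up less than 1% of the reads in every dog, and the groups overlapped. They accounted for 0.544%, 0.623% and 0.702% of the reads in control dogs 1, 2 and 3, and for 0.413%, 0.781% and 0.613% in CPP-Se dogs 1, 2 and 3. The mean was 0.623% ± 0.0790 for the controls against 0.602% ± 0.184 under CPP-Se (here and below, errors are SD with n = 3 dogs in each group). The lowest and the highest share were both in the CPP-Se group, and their 95% Wilson intervals, which cover counting error only, were 0.408% to 0.418% in dog 1 and 0.775% to 0.787% in dog 2. Among reads outside the hemoglobin genes the share was 1.06%, 1.33% and 1.38% in the controls and 0.914%, 1.23% and 1.39% in the CPP-Se dogs, again with overlap. In whole blood, fewer cells of a type and less RNA per cell cannot be told apart. With 3 dogs against 3, an exact permutation test of a single value cannot go below p = 0.1.

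**Figure D1:**
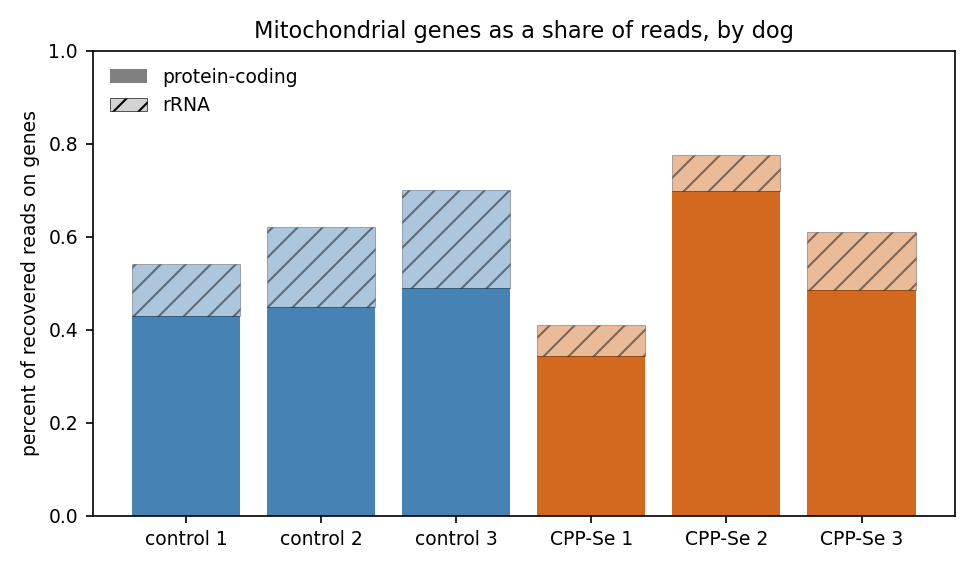
Bars give the reads on mitochondrial protein-coding genes (solid) and rRNA genes (hatched) as a percent of the recovered reads on all genes, for each of the 6 dogs, with tRNA reads left out as they are too few to be seen. The totals of the groups overlap, and the hatched section is smallest in relation to its bar in CPP-Se dog 2.

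The make-up of these reads differed more than their total. Protein-coding genes held 78.9%, 72.2% and 69.6% of the mitochondrial reads in the controls and 83.0%, 89.4% and 79.2% under CPP-Se. The rRNA genes held 20.7%, 27.3% and 30.1% in the controls and 16.3%, 9.91% and 20.3% under CPP-Se. The rRNA part was thus lower in all 3 CPP-Se dogs, although control dog 1 and CPP-Se dog 3 were almost level. The tRNA genes held between 0.277% and 0.722% of the mitochondrial reads, with overlap between the groups.

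Of the 37 genes, 26 reached the mean of 1 FPKM required for testing, namely all protein-coding and rRNA genes and 11 tRNA genes. None of the 26 passed an adjusted p under 0.05 with a fold change of at least 1.5 in limma with Benjamini-Hochberg adjustment over all 9847 genes tested, where 0.0305% of the genes were called. In the same limma fit, 6 of the 26 mitochondrial genes had an unadjusted p under 0.05, against 16.0% of all genes tested, but 3 of the 6 were tRNA genes with means of at most 2 reads, 2 of which had 0 reads in all control dogs and so were tested only through the CPP-Se group. Among the 18 with a mean of at least 10 reads, 3 genes (16.7%) had such a p, against 15.9% of all tested genes with that many reads. Of these 3 genes, 1 was higher and 2 were lower. Over all 9847 genes tested, whatever their reads, 6.87% were higher and 9.10% were lower at such a p. The groups were free of overlap in 3 of the 26 (11.5%), 2 of them higher and 1 lower, against 23.0% of all genes tested, 10.4% higher and 12.6% lower. The median log2 fold change (CPP-Se over control, on log2 of FPKM + 1 throughout) was 0.03 for the 13 protein-coding genes, −0.98 for the 2 rRNA genes and −0.00 over all genes tested. No median is given for the tRNA genes, since several passed the filter only through the group where they were higher.

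**Figure D2:**
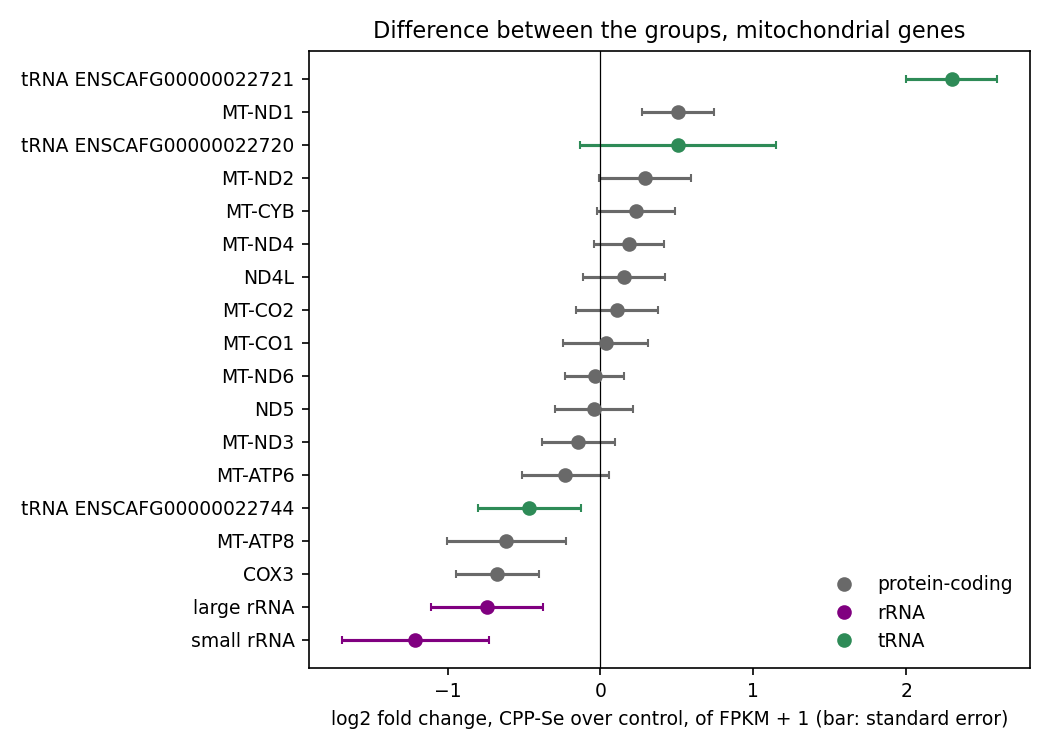
Each point is the log2 fold change of FPKM + 1 in the CPP-Se group over the control group for a mitochondrial gene with a mean of at least 10 reads per dog, with its standard error from limma as a bar, coloured by gene type. The 13 protein-coding genes lie between −0.68 and 0.51, both rRNA genes lie below all of them, and a single tRNA gene stands at 2.30.

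Among the protein-coding genes, level per length spanned a wide range in both groups. In the control group COX3 was highest with 1125 ± 106 FPKM, followed by MT-ATP6 with 1025 ± 79.4 FPKM and MT-CO1 with 839 ± 90.2 FPKM. COX3 and MT-ATP6 did not differ beyond their spread. At the low end were ND5 with 72.9 ± 13.6 FPKM and MT-ND6 with 71.3 ± 3.33 FPKM, which were within their spread of each other, and MT-ATP8 with 47.4 ± 25.6 FPKM. MT-ATP8 spans only 204 bases and shares 43 of them with MT-ATP6. How reads in the shared bases were counted is not given, so its FPKM cannot be read as its transcript level relative to MT-ATP6. MT-ND1 (157 ± 14.0 FPKM), MT-ND3 (153 ± 8.68 FPKM) and MT-CYB (145 ± 12.4 FPKM) were also within their spread of one another. The order changed at the top in the CPP-Se group, where MT-ATP6 (902 ± 294 FPKM), MT-CO1 (880 ± 261 FPKM) and MT-CO2 (730 ± 210 FPKM) had larger means than COX3 (719 ± 186 FPKM), all within wide spreads.

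**Figure D3:**
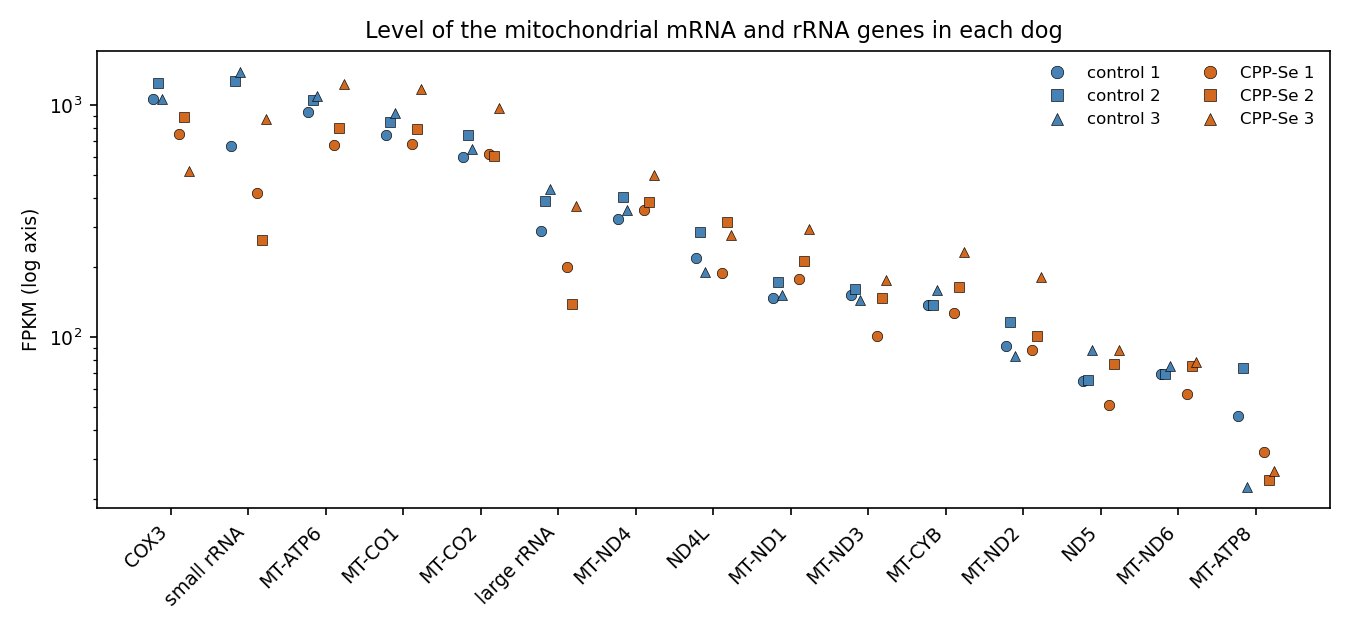
FPKM on a log axis of the 13 protein-coding and 2 rRNA genes in each dog, ordered by the mean of the control group, with blue for control and orange for CPP-Se dogs and a symbol for each dog number. The CPP-Se dogs lie below the control dogs without overlap for COX3 and above them for MT-ND1, and CPP-Se dog 3 has the highest MT-CO1, MT-CO2 and MT-ATP6 of all dogs but the lowest COX3.

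The 7 genes of complex I, the NADH dehydrogenase through which electrons from NADH enter the chain, had log2 fold changes from −0.14 to 0.51. MT-ND1 (ENSCAFG00000022713, MT:2747-3703, plus strand), a membrane subunit that helps to form the quinone-binding site, had 147, 173 and 151 FPKM in the controls and 178, 213 and 294 FPKM in the CPP-Se dogs. Every CPP-Se dog was above every control dog, though CPP-Se dog 1 exceeded control dog 2 only slightly. The log2 fold change was 0.51 (standard error 0.24, adjusted p = 0.345 in limma), and 0.31 without CPP-Se dog 3. MT-ND2, a proton-pumping membrane subunit, had 91.8, 116 and 83.2 FPKM in the controls and 87.8, 102 and 182 FPKM in the CPP-Se dogs. Only CPP-Se dog 3 was above the control range, and the log2 fold change of 0.29 (adjusted p = 0.677 in limma) became −0.02 without that dog. MT-ND4 and ND4L, whose genes share 7 bases, had log2 fold changes of 0.19 and 0.15 (adjusted p = 0.730 and 0.821 in limma) with overlapping dogs, and that of MT-ND4 was 0.04 without CPP-Se dog 3. MT-ND3 had a log2 fold change of −0.14, ND5 of −0.04 and MT-ND6 of −0.04 (adjusted p = 0.811, 0.957 and 0.946 in limma). These 3 genes lay near 0, and the signs of all 3 turned when FPKM were rescaled to the reads on genes, which moved the median of all genes tested by 0.13 on the log2 scale.

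MT-ND6 is the only protein-coding gene on the minus strand, and 17 bases of it overlap ND5 on the other strand. It had 69.6, 69.2 and 75.2 FPKM in the controls and 57.1, 75.0 and 78.0 FPKM in the CPP-Se dogs. Its share of the reads on mitochondrial protein-coding genes was 0.832% ± 0.0665 for the controls against 0.839% ± 0.0948 under CPP-Se, a difference smaller than the spread within either group. No strand setting of the read counting is given in the sources used here.

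MT-CYB (ENSCAFG00000022742, MT:14183-15322, plus strand) encodes cytochrome b, the subunit of complex III that carries electrons from ubiquinol. It had 138, 138 and 159 FPKM in the controls and 127, 165 and 234 FPKM in the CPP-Se dogs. The dogs overlapped, and the log2 fold change was 0.23 (standard error 0.26, adjusted p = 0.702 in limma), with 0.00112 without CPP-Se dog 3 and 0.44 without CPP-Se dog 1.

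Complex IV is cytochrome c oxidase, which passes the electrons to oxygen. Its catalytic subunits MT-CO1 and MT-CO2 were close between the groups, with log2 fold changes of 0.03 (standard error 0.28) and 0.11 (standard error 0.27) and adjusted p of 0.964 and 0.881 in limma. Both became negative without CPP-Se dog 3, at −0.19 and −0.12. COX3 (ENSCAFG00000022730, MT:8644-9427, plus strand), the third core subunit, had 1061, 1247 and 1066 FPKM in the controls and 752, 887 and 518 FPKM in the CPP-Se dogs. Its level was lower in all 3 CPP-Se dogs and lowest by far in dog 3. The log2 fold change was −0.68 (standard error 0.27, unadjusted p = 0.0385, adjusted p = 0.285 in limma), and −0.46 without CPP-Se dog 3. COX3 begins at the last base of MT-ATP6, and the ratio of COX3 FPKM to MT-ATP6 FPKM was 1.13, 1.19 and 0.978 in the controls and 1.12, 1.11 and 0.420 in the CPP-Se dogs. CPP-Se dog 3 therefore stood apart from the other 5 dogs in this ratio, while CPP-Se dogs 1 and 2 fell within the control range.

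Complex V is the ATP synthase. MT-ATP6 (ENSCAFG00000022729, MT:7964-8644, plus strand), part of its proton channel, had 937, 1049 and 1090 FPKM in the controls and 673, 800 and 1233 FPKM in the CPP-Se dogs. CPP-Se dogs 1 and 2 were below the control dogs and dog 3 above them, and the log2 fold change was −0.23 (standard error 0.29, adjusted p = 0.737 in limma), with −0.04 without CPP-Se dog 1 and −0.48 without CPP-Se dog 3. MT-ATP8 shares 43 of its bases with MT-ATP6 and had a mean of only 56.3 reads per dog. Its log2 fold change was −0.62 (standard error 0.39, adjusted p = 0.491 in limma), with −0.23 without control dog 2 and −1.06 without control dog 3. How reads in the shared bases were assigned is not given in the sources used here.

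Levels were also expressed as a share of the reads on the 13 protein-coding genes of the same dog, which does not depend on the scaling between dogs. These shares are descriptions, and those without COX3 and those of FPKM were added after the values were seen. Complex I genes held 23.0%, 23.5% and 22.0% in the controls and 26.6%, 27.5% and 27.4% under CPP-Se. The complex III gene MT-CYB held 3.78%, 3.26% and 3.89% in the controls and 3.98%, 4.46% and 4.84% in the CPP-Se dogs. Both were higher in all CPP-Se dogs. Complex IV genes held 57.6%, 58.1% and 58.1% in the controls and 56.7%, 55.0% and 52.4% in the CPP-Se dogs, lower without overlap. As a share of the summed FPKM of the same genes, complex IV overlapped between the groups, with 52.3% in control dog 1 and 52.5% in CPP-Se dog 1. Complex V genes held 15.6%, 15.1% and 16.0% in the controls and 12.8%, 13.02% and 15.4% in the CPP-Se dogs, with overlap. Of the 13 genes, MT-ND1, MT-ND2, MT-ND4 and MT-CYB were higher and COX3 was lower without overlap, and the other 8 overlapped. On the FPKM themselves 2 of the 13 were free of overlap (15.4%), against 23.0% of all genes tested, for which no such shares can be formed.

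Shares of a dog add up to 100%, so a lower share of COX3 raises those of the other genes. With COX3 left out, complex I genes held 28.8%, 29.5% and 26.8% in the controls and 31.7%, 32.9% and 29.6% in the CPP-Se dogs, still higher, but control dog 2 and CPP-Se dog 3 were almost level. The dogs then overlapped for complex IV, MT-ND2 and MT-ND4, and MT-CYB was almost level between control dog 3 at 4.746% and CPP-Se dog 1 at 4.752%. MT-ND1 kept a clear gap, with 4.24%, 4.31% and 3.79% in the controls and 5.61%, 5.79% and 5.51% in the CPP-Se dogs. Complex V was then lower without overlap, at 19.5%, 19.0% and 19.5% in the controls and 15.3%, 15.6% and 16.6% under CPP-Se. The same genes set against MT-CO1 gave ratios of MT-ND1 FPKM to MT-CO1 FPKM of 0.188 ± 0.0215 for the controls against 0.261 ± 0.0105 under CPP-Se. For MT-ATP6 FPKM to MT-CO1 FPKM they were 1.23 ± 0.0403 and 1.02 ± 0.0291. Neither ratio overlapped between the groups, and both are descriptions chosen after the values were seen.

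**Figure D4:**
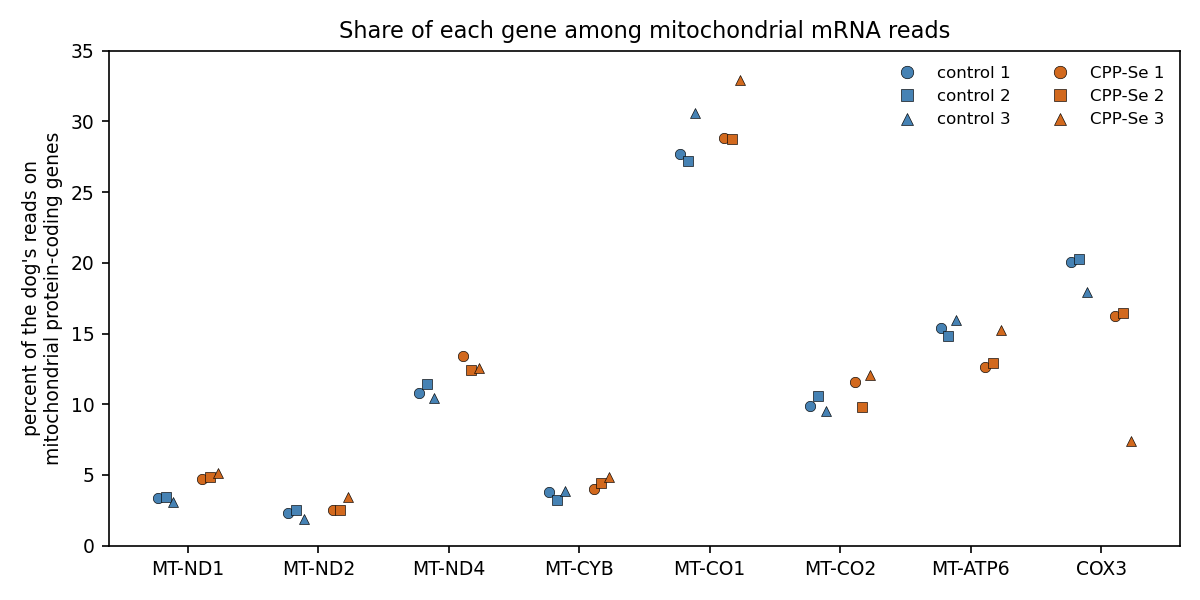
Share of 8 protein-coding genes among the reads on the 13 mitochondrial protein-coding genes, in percent, for each dog, with blue for control and orange for CPP-Se. MT-ND1 is at 3.11% to 3.44% in the controls and 4.70% to 5.11% in the CPP-Se dogs, and COX3 is at 17.9% to 20.3% in the control dogs, 16.2% and 16.5% in CPP-Se dogs 1 and 2 and 7.38% in CPP-Se dog 3.

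Both rRNA genes had lower means in the CPP-Se group, with overlapping dogs. The shorter gene (ENSCAFG00000022709, MT:70-1023, plus strand) encodes the RNA of the small ribosomal subunit and had 668, 1275 and 1396 FPKM in the controls and 418, 262 and 873 FPKM in the CPP-Se dogs. Control dog 1 lay within the range of the CPP-Se dogs. The log2 fold change was −1.21 (standard error 0.48, unadjusted p = 0.0364, adjusted p = 0.281 in limma). The longer gene (ENSCAFG00000022711, MT:1091-2670, plus strand) encodes the RNA of the large subunit and had 286, 386 and 434 FPKM in the controls and 200, 138 and 367 FPKM in the CPP-Se dogs. The log2 fold change was −0.74 (standard error 0.37, adjusted p = 0.374 in limma). CPP-Se dog 2 was lowest for both, and the log2 fold change of the shorter gene was −0.81 and that of the longer gene −0.42 without it. Without CPP-Se dog 3, the highest of the group for both, they were −1.68 and −1.12 (adjusted p = 0.181 for each in limma). Set against MT-CO1 in the same dog, the FPKM of the shorter gene gave ratios of 0.899 to 1.51 in the controls and of 0.333 to 0.743 under CPP-Se, without overlap. The libraries selected polyadenylated RNA, so these values measure the rRNA that this selection let through and not the whole rRNA of the organelle.

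Reads on the tRNA genes were few. These genes span 60 to 75 bases, below the fragment length that such libraries usually hold, and 8 of the 22 had 0 reads in all dogs. A further 11 had a mean under 10 reads, with at most 8 reads in a dog. Together these 11 had 76 reads, 15 in the controls and 61 in the CPP-Se dogs, and 8 of them reached the FPKM needed for testing with means of 1 to 2 reads, since a short length turns few reads into a high FPKM. The totals are raw reads that do not allow for library size, which was largest in CPP-Se dog 2. Single values of these genes rest on very few reads. Of the 8 tested, 3 had 0 reads in all control dogs.

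The 3 tRNA genes with a mean of at least 10 reads all lie on the minus strand. ENSCAFG00000022721 (MT:5212-5279) and ENSCAFG00000022720 (MT:5107-5178) belong to a row of 5 tRNA genes between MT-ND2 and MT-CO1 and flank a stretch of 33 bases without annotated genes, the longest such stretch between neighbouring mitochondrial genes. ENSCAFG00000022744 (MT:15392-15457) is the last gene of the annotation, next to the unannotated remainder of the circle. No strand setting of the counting is given in the sources used here, so reads from these genes and from precursors of the opposite strand cannot be told apart.

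ENSCAFG00000022721 had the largest difference of the tested mitochondrial genes. It had 18, 8 and 21 reads in the controls and 63, 147 and 63 reads in the CPP-Se dogs, which gave 38.8, 18.4 and 38.4 FPKM against 145, 162 and 151 FPKM. Every CPP-Se dog was well above every control dog, and the CPP-Se dogs were close to one another in FPKM. The log2 fold change was 2.30 (standard error 0.30, unadjusted p = 6.47e-05), which did not pass over all genes tested (adjusted p = 0.138 in limma). Its adjusted p ranged from 9.23e-05 to 0.391 over the alternative settings, and it was called under 3 of them. These were FPKM rescaled to the reads on genes in limma (adjusted p = 0.00863), limma-voom with sample quality weights (adjusted p = 0.0401) and a negative binomial model fitted to the reads (Benjamini-Hochberg adjusted p = 9.23e-05). Those settings called 0.234%, 1.58% and 2.27% of all genes tested. Leaving out each dog in turn gave log2 fold changes of 1.96 to 2.47. Per 1000 reads on the mitochondrial protein-coding genes of the same dog it had 0.635, 0.260 and 0.561 reads in the controls and 2.71, 2.61 and 1.87 reads in the CPP-Se dogs, again without overlap.

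Its neighbour ENSCAFG00000022720 had 34, 36 and 16 reads in the controls and 61, 116 and 12 reads in the CPP-Se dogs. This gave 69.2, 78.4 and 27.6 FPKM against 132, 121 and 27.2 FPKM, with CPP-Se dog 1 highest and CPP-Se dog 3 almost level with control dog 3. The log2 fold change was 0.51 (standard error 0.64, adjusted p = 0.741 in limma), ranging from 0.05 to 1.23 with each dog left out. ENSCAFG00000022744 had 99, 172 and 104 reads in the controls and 62, 160 and 101 reads in the CPP-Se dogs, which gave 220, 408 and 196 FPKM against 147, 182 and 250 FPKM. Its log2 fold change was −0.46 (standard error 0.34, adjusted p = 0.544 in limma), and −0.14 without control dog 2. The dogs overlapped for both. A low tRNA gene, ENSCAFG00000022718 (MT:4956-5023, plus strand), had 3, 0 and 3 reads in the CPP-Se dogs and 0 in all control dogs, so that it was tested only through the group where it had reads, and no fold change is given for it.

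**Figure D5:**
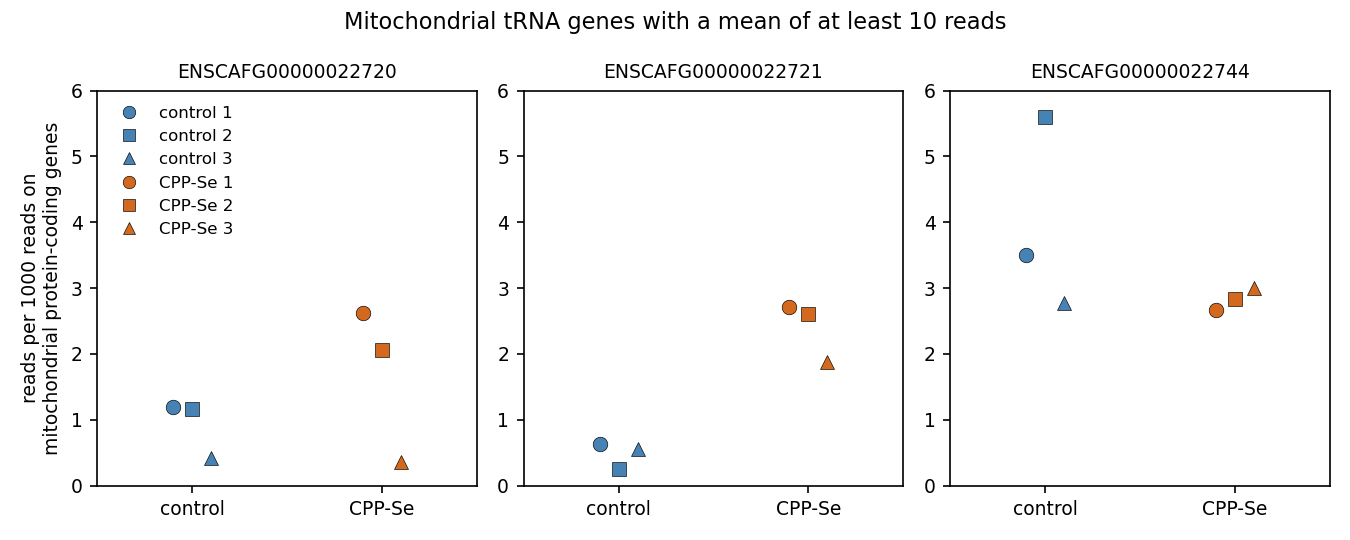
Reads of the 3 mitochondrial tRNA genes with a mean of at least 10 reads, per 1000 reads on mitochondrial protein-coding genes of the same dog, shown by group with a symbol for each dog number. The groups are separate for ENSCAFG00000022721, at 0.260 to 0.635 in the controls and 1.87 to 2.71 in the CPP-Se dogs, and overlap for the other genes.

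The nuclear genes that transcribe, process and translate these RNAs were examined as lists. None of the tested members of these lists passed the thresholds over all genes tested in limma. Listed genes were matched by symbol, and some were not found. The match gave 27 genes for 31 symbols of transcription and RNA processing, 11 for 15 of DNA maintenance and 19 for 24 of aminoacyl-tRNA synthetases. Of 18 tested genes for mitochondrial transcription and RNA processing, 3 were higher and 1 was lower at an unadjusted p under 0.05, which is 22.2% against 16.0% of all genes tested, and the median log2 fold change was 0.17. The groups were free of overlap in 7 of the 18 (38.9%), 5 higher and 2 lower, against 23.0% of all genes tested, 10.4% higher and 12.6% lower. POLRMT, the RNA polymerase that transcribes the mitochondrial genome, had 4.52, 4.42 and 4.65 FPKM in the controls and 9.15, 9.25 and 8.19 FPKM in the CPP-Se dogs. The groups were far apart in relation to their spread, and the log2 fold change was 0.83 (standard error 0.16, adjusted p = 0.138 in limma). Of the 6 lists, POLRMT was the only gene called by limma-voom with sample quality weights (adjusted p = 0.0407) or by the negative binomial model (Benjamini-Hochberg adjusted p = 0.0167), and its adjusted p was up to 0.455 over the other settings. This was 0.649% of the 154 tested genes of the lists, against 1.58% and 2.27% of all genes tested under the same models. The RNA-binding protein gene TBRG4, which acts in mitochondrial mRNA handling, had 6.99 ± 1.23 FPKM for the controls against 14.2 ± 6.37 FPKM under CPP-Se (log2 fold change 0.84, adjusted p = 0.270 in limma, and 0.55 without CPP-Se dog 1). For SLIRP, whose product binds and stabilises mitochondrial mRNAs, the log2 fold change was −0.75 (adjusted p = 0.431 in limma) on a mean of 13.3 reads per dog, with −0.31 without CPP-Se dog 1 and −0.47 without control dog 2.

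Of 58 tested mitochondrial ribosomal protein genes, 6 were higher and 1 was lower at an unadjusted p under 0.05, which is 12.1% against the 16.0% of all genes tested. Their median log2 fold change was 0.21, with MRPS34 (0.80, adjusted p = 0.253 in limma, and 0.48 without CPP-Se dog 1) at the top. The 15 tested genes for mitochondrial aminoacyl-tRNA synthetases, which charge the tRNAs, had 1 higher and 0 lower at an unadjusted p under 0.05 (6.67%, below the share of all genes) and a median of 0.16. The higher gene was VARS2, which charges valine tRNA, with 6.47 ± 0.807 FPKM for the controls against 11.6 ± 2.66 FPKM under CPP-Se. Its log2 fold change was 0.74 (adjusted p = 0.185 in limma, standard error 0.21). For the nuclear subunits of the respiratory chain, only 51 genes were matched for the 91 symbols listed, so the list covers the chain in part. For the 50 tested the median was −0.00, with 1 higher and 1 lower at an unadjusted p under 0.05 (4%, also below that of all genes). The 8 tested genes for maintenance of mitochondrial DNA and the 5 tested regulators of mitochondrial biogenesis had 0 at that threshold, where all genes had 16.0%, with medians of 0.11 and 0.28. The groups were free of overlap in 2 of these 5 regulators (40%, both higher) and in 0 of the 8 maintenance genes, against 23.0% of all genes tested. The shares were 19.0% of the ribosomal protein genes, 13.3% of the synthetases and 6% of the respiratory chain subunits.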

How the data were processed

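Whole-blood RNA was oligo(dT)-selected and sequenced as paired ends. Per the labels, the authors used CASAVA 2.19, fastp 0.19.7, HISAT2 2.0.5 and featureCounts 1.5.0-p3, and per the paper's methods the dog genome of Ensembl release 100. Strand use and the handling of reads that map to several places, such as nuclear copies of mitochondrial DNA, are not given in the sources used here. The deposited values are FPKM. Their product with gene length, in units of each library's smallest step, was a whole number of reads for 100% of the values above 0 (tolerance 0.01).

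The test covered genes averaging 1 FPKM or more across the 6 dogs, on log2(FPKM + 1) by limma 3.58.1 in R 4.3.3 (eBayes with a trend, two-sided, Benjamini-Hochberg adjustment). Every protein-coding and rRNA gene, and tRNA genes with a mean of at least 10 reads or called by a count model, were named, and of each nuclear list at most the 3 largest differences. ENSCAFG00000022718 was named after its values were seen. Scripts were tested on simulated data. Members and lists were chosen with earlier results of these data known. Other pseudocounts, filters, scalings, count models and left-out dogs were tried. Coordinates are those of the deposited annotation. No sequences are printed, and no mitochondrial reference was used here.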

Additional observations from a re-analysis of the deposited data

How the results depend on the processing

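Over all genes tested, 3 genes were called. With a pseudocount of 0.1 or with no filter on FPKM 0 were called, and 1 was called with a mean of at least 10 reads, with the replicate block or by limma-voom. The count was 23 with FPKM scaled to reads on genes, 156 with limma-voom and sample quality weights, 224 with the negative binomial model, and 0 to 14 with each dog left out in turn (14 without CPP-Se dog 2). Of the mitochondrial genes 0 were called, and 1 was called under the scaling to reads on genes, the sample quality weights and the negative binomial model, and 0 to 1 with each dog left out (ENSCAFG00000022718 without CPP-Se dog 2, the only CPP-Se dog in which it had 0 reads, as in all control dogs, so nothing is read from it). Dogs with the same number share only a number. Their deviations correlated at 0.0165, −0.0900 and −0.0433, and the replicate block changed no call of a mitochondrial gene.

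Of 342 comparisons of the 18 mitochondrial genes with a mean of at least 10 reads with 19 alternatives each, 323 kept their direction and their side of the threshold, 3 gained a call (all ENSCAFG00000022721), and 16 turned direction in 7 genes. With FPKM scaled to reads on genes, the log2 fold changes were 0.00329 for MT-ND3, 0.11 for ND5 and 0.11 for MT-ND6. With hemoglobin reads left out they were 0.0894 for ND5 and 0.0916 for MT-ND6, and with mitochondrial reads left out too, 0.0882 and 0.0904. These scalings moved the median of all genes tested by 0.11 to 0.13. With each dog left out, the log2 fold changes ranged from −0.0223 to 0.50 for MT-ND2, −0.19 to 0.20 for MT-CO1, −0.12 to 0.23 for MT-CO2, −0.32 to 0.0755 for MT-ND3, −0.000818 to 0.37 for ND4L, −0.20 to 0.19 for ND5 and −0.12 to 0.10 for MT-ND6. The cause was not tested. The log2 ratio of the mitochondrial share of reads was −0.09, and −0.30 to 0.16 with each dog left out. That of complex I fell from 0.25 to 0.14 and that of complex IV went from −0.08 to −0.00 without COX3. The tRNA genes other than those named rest on few reads.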
